A study of Mus musculus with 4 samples.

Results

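CTCF, its germline paralog CTCFL and the factors that load cohesin onto chromatin or release it were compared between control mouse oocytes and oocytes exposed to acute γ-irradiation. The members are 7 genes, Ctcf, Ctcfl, Nipbl, Mau2, Wapl, Pds5a and Pds5b, chosen by gene ID among the 17374 genes of the deposited table and described here through all 25 of their listed transcripts. No measured value entered the rule that chose them, but earlier results of these data were known at the time. Ctcf is also among the genes that the study singled out from these same libraries. All 7 were detected in every library. Wapl stood far above the rest, at 146.1 to 182.7 TPM (a level corrected for transcript length that sums to the same total in each library), and the other 6 lay between 1.06 and 9.99 TPM. None of the 7 gene totals passed the test between irradiated and control oocytes. The smallest unadjusted p values belonged to a higher Mau2 total and to a lower count of 1 Ctcf transcript, NM_181322.3. Neither passed the adjusted threshold of the main test. In 2 alternative tests the transcript did pass it, with an adjusted p of 0.00029 in DESeq2 and 0.00023 in edgeR's exact test. Its log2 fold change (-1.84 in DESeq2) stayed inside the limit of 2 in size that a call also needed.

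The study sequenced mRNA of germinal vesicle (GV) stage oocytes, which are arrested in prophase of the first meiotic division, from non-primed females at postnatal day 16. Each condition had 2 libraries. Control oocytes received no radiation, and irradiated oocytes received 5 Gy of γ-rays in culture and were collected 24 h later. Oocytes of both conditions came from females of the C57/Bl6/DBA2J F1 hybrid background, were held in the GV stage with the phosphodiesterase inhibitor milrinone, were freed of cumulus cells and zona pellucida and were pooled, so that a library holds the RNA of many oocytes and not of 1 cell. The replicates are described by the study as independent experiments. The p-values of the main test set a difference against the spread between 2 such libraries a condition. That spread was estimated partly from the other genes or transcripts tested. Estimated read counts came to between 33349466 and 37232818 a library.

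Cohesin is a ring-shaped complex that holds sister chromatids together and extrudes loops of chromatin. NIPBL and MAU2 form the loader that places the ring on DNA and drives loop extrusion, while WAPL, together with PDS5A or PDS5B, opens the ring and releases it. CTCF is a zinc finger protein that binds DNA and halts extruding cohesin at loop anchors, and CTCFL (BORIS) is a paralog with a similar zinc finger domain that is best known from male germ cells. In oocytes, the cohesin that joins sister chromatids is loaded before birth and has to last until the meiotic divisions.

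The members lie on 5 chromosomes of GRCm38.p6. Ctcf is at chr8:105636474-105682922 on the plus strand and Mau2 at chr8:70014527-70042734 on the minus strand. Ctcfl is at chr2:173093609-173119525 (minus), Nipbl at chr15:8289824-8465315 (minus) and Wapl at chr14:34672379-34747983 (plus). Pds5a and Pds5b share chromosome 5, at chr5:65605719-65698236 (minus) and chr5:150673713-150810669 (plus). Reads can be divided wrongly between paralogs where their sequences are the same. The annotated coding transcripts of Ctcf and Ctcfl had 0 stretches of 100 bases, the length of a read, in common and a longest common run of 12 bases. Pds5a and Pds5b also had 0 stretches of 100 bases in common, with a longest run of 23. Genes on the opposite strand overlap some members, among them Ctcflos over 8708 bases of Ctcfl, Agrp over 920 bases of Ctcf and 5830448L01Rik over 1299 bases of Wapl, and Pds5a and Pds5b have such overlaps too. Genes on the same strand overlap Pds5a and Pds5b as well, among them C030017G13Rik over 2331 bases of Pds5a and Gm43807 over 1781 bases of Pds5b. These overlaps are of whole gene spans, introns included, and whether they reach counted exons was not analysed. The sources used here do not say whether counting used the strand. Where exons are shared, reads of such genes could therefore not be told apart from those of the members. Of these genes Agrp alone was in the deposited table.

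Several members are divided in the table among transcripts that differ by short coding stretches, which set how well the counts of single transcripts can be read. The principal case is Wapl, where NM_001004436.4 and NM_001301330.1 have 19 exons each and differ within the coding sequence by 18 bases at chr14:34694987-34695004 on the plus strand. They encode 1200 and 1194 amino acids. The stretch is shown because it is the one coding difference between the transcripts whose shares are given further on. Capitals mark the 18 coding bases that the first transcript has and the second lacks, and lower case marks the flanking coding bases.
Wapl NM_001004436.4: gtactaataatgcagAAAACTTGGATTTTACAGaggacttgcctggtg
Wapl NM_001301330.1: gtactaataatgcagaggacttgcctggtg
Of the 100-base windows along the coding sequence, 3.23% of those of NM_001004436.4 and 2.73% of those of NM_001301330.1 were absent from the other transcript. The annotated ends of the transcripts differ as well. The 2 Mau2 transcripts, NM_001167939.1 and NM_028993.4, encode 650 and 618 amino acids and differ more, in 14.4% and 9.74% of their coding windows. One of their coding differences is 3 bases at chr8:70023611-70023613 on the minus strand, in capitals here, shown as an example of the bases that tell them apart.
Mau2 NM_001167939.1: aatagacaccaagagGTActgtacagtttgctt
Mau2 NM_028993.4: aatagacaccaagagctgtacagtttgctt
In Pds5b, NM_001346503.1 and NM_175310.6 encode 1449 and 1446 amino acids and differ in 4.83% and 4.62% of their coding windows. The sequences were read from the GENCODE vM21 models of these RefSeq transcripts on GRCm38.

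Levels were compared between the genes in TPM, where transcript length is taken into account. Wapl had 146.1 and 147.4 TPM in the control libraries and 157.5 and 182.7 TPM in the irradiated libraries, and ranked 853 of 17374 genes by its control mean. Wapl alone made up 87.8% to 88.7% of the summed TPM of the 7 genes in each library. Ctcf followed, with 9.94 and 9.48 TPM in controls and 9.0 and 9.99 TPM after irradiation, so that the control mean of Wapl was 15.1 times that of Ctcf. Both genes of the loader lay lower. Mau2 had 3.14 and 3.15 TPM in controls and 4.04 and 6.11 TPM after irradiation, and Nipbl had 2.39 and 2.65 TPM in controls and 2.34 and 2.65 TPM after irradiation. The lower end held the PDS5 genes and Ctcfl. Pds5b had 1.98, 2.48, 2.00 and 2.23 TPM in control 1, control 2, irradiated 1 and irradiated 2. Pds5a had 1.47, 1.53, 1.43 and 1.47 TPM in the same order, and Ctcfl 1.37, 1.06, 1.33 and 1.15 TPM. The order Wapl, Ctcf, Mau2, Nipbl, Pds5b, Pds5a, Ctcfl therefore ran over a span in which the control mean of Wapl was 121 times that of Ctcfl. Nipbl and Pds5b were the one pair of neighbours whose ranges over the 4 libraries overlapped. The same order, with its wide step below Wapl, is seen in the plot of TPM by gene and library.

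**Figure D1:**
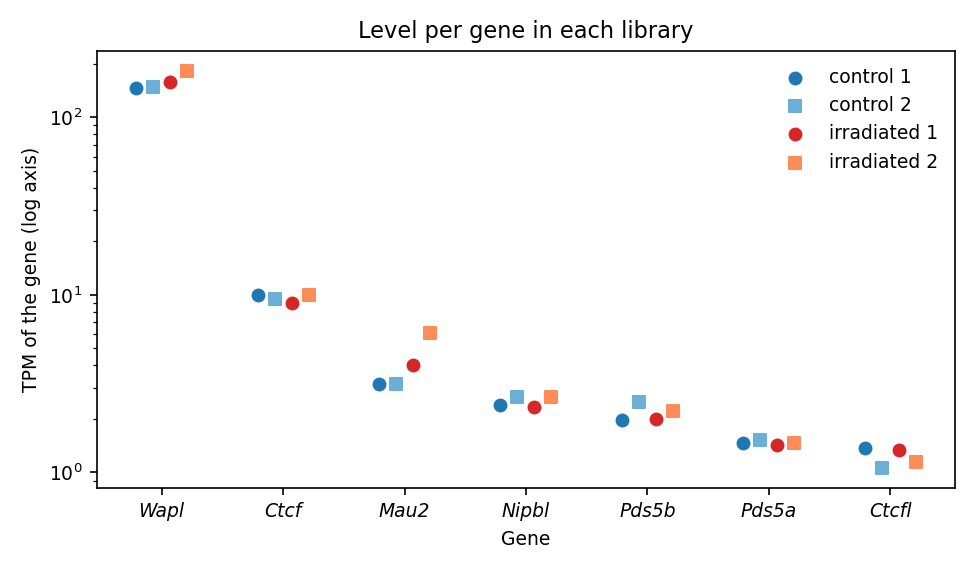
TPM of each member gene (log axis) in the 4 libraries, with 1 point a library, circles for replicate 1 and squares for replicate 2, control in blue and irradiated in red. Wapl lies at 146.1 to 182.7 TPM and the other 6 genes between 1.06 and 9.99 TPM.

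For the comparison of irradiated with control oocytes, the estimated counts of all transcripts of a gene were summed and tested across all 12569 genes that passed a filter on low counts, which all 7 members did. Values per library are given below as normalized counts, that is, counts divided by the library's effective size relative to the mean of the 4 libraries. A gene was called when its log2 fold change exceeded 2 in size and its adjusted p was under 0.05. None of the 7 members was called, and 0.00796% of all genes tested were (1 gene). At an unadjusted p under 0.05, 1 of the 7 was higher after irradiation (Mau2) and 0 were lower, beside 4.63% higher and 1.3% lower among all genes. The 95% intervals of the 7 fold changes lay between 0.552-fold and 1.71-fold, and 6 of the 7 included no change. In such pools of oocytes, fewer cells with a transcript and less of it in each cell cannot be told apart.

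Ctcf, the DNA-binding loop anchor factor, had normalized counts of 1019 and 912 in control libraries and 880 and 734 in irradiated libraries. Both irradiated values were below both control values. The log2 fold change was -0.26 (SE 0.149, 95% interval -0.61 to 0.093, n = 2 a condition), and edgeR's quasi-likelihood test gave an adjusted p of 0.708. Ctcfl had normalized counts of 117 and 84.5 in controls and 108 and 70.6 after irradiation. These ranges overlapped, and the log2 fold change was -0.18 (SE 0.286, 95% interval -0.86 to 0.50, adjusted p = 0.841, edgeR). The count of Ctcf was 8.72 and 10.8 times that of Ctcfl in the controls and 8.11 and 10.4 times in the irradiated libraries, again overlapping.

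The 2 genes of the loader lay on different sides of their controls. Mau2 had normalized counts of 457 and 430 in controls and 560 and 640 after irradiation, higher in both irradiated libraries than in either control. Its log2 fold change was 0.44 (SE 0.141, 95% interval 0.10 to 0.77). It was the one member with an unadjusted p under 0.05, and its adjusted p was 0.708 (edgeR). Nipbl, the larger subunit, had 644 and 675 in controls and 602 and 520 after irradiation. Both irradiated values of Nipbl lay below both controls, with a log2 fold change of -0.23 (SE 0.140, 95% interval -0.57 to 0.098, adjusted p = 0.708, edgeR). The count of Mau2 divided by that of Nipbl, which does not depend on library scaling, was 0.710 and 0.637 in controls and 0.931 and 1.23 in irradiated libraries. The ratio was thus higher in both irradiated libraries, but 2 libraries against 2 cannot give less than p = 0.333 in a two-sided exact permutation test, the value obtained.

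Among the release factors, Wapl had the widest absolute range and the smallest fold change. Its normalized counts were 25252 and 23891 in controls and 25928 and 22735 after irradiation. The controls lay inside the range of the irradiated libraries, and the log2 fold change was -0.014 (SE 0.207, 95% interval -0.50 to 0.48, adjusted p = 0.983, edgeR). Pds5a had 309 and 318 in controls and 288 and 239 after irradiation, with a log2 fold change of -0.25 (SE 0.165, 95% interval -0.64 to 0.14, adjusted p = 0.714, edgeR). Pds5b had 378 and 442 in controls and 366 and 314 after irradiation, with a log2 fold change of -0.27 (SE 0.162, 95% interval -0.65 to 0.11, adjusted p = 0.708, edgeR). In both PDS5 genes the irradiated values were below the controls by less than the test could separate from replicate spread. The count of Pds5b was 1.23 and 1.39 times that of Pds5a in controls and 1.27 and 1.32 times in irradiated libraries, so the balance of these paralogs overlapped between conditions.

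Counted over the members, normalized counts did not overlap between the conditions for 5 genes, 1 higher (Mau2) and 4 lower (Ctcf, Nipbl, Pds5a and Pds5b). Among all genes tested, 41.9% did not overlap, 22.1% higher and 19.9% lower. The 4 lower values depended on the scale. In TPM, Mau2 and Wapl were higher without overlap (32.8% of all genes were), and 0 members were lower (5.93% of all genes were). The median log2 fold change of all genes was 0.010 with the TMM scaling used here but 0.17 with library size alone and 0.14 on the log2(TPM + 1) scale, so values on these scales are read against that shift. Irradiated library 2 had a TMM factor of 1.19 against 0.923 to 0.975 in the other 3. Without it, the TMM-scaled log2 fold changes were -0.13 for Ctcf, -0.13 for Nipbl, -0.12 for Pds5a and -0.16 for Pds5b. With all 4 libraries they were -0.26, -0.23, -0.25 and -0.27. Mau2 had 0.34 without it and 0.44 with it. The fit without it rests on 1 irradiated library, and the part of irradiated library 2 in the differences between scales was not tested. Relative to the median of all genes, Mau2 was higher by 0.43 with TMM, 0.44 with library size and 0.39 on the log2(TPM + 1) scale, and Ctcf lay at -0.27, -0.28 and -0.17.

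**Figure D2:**
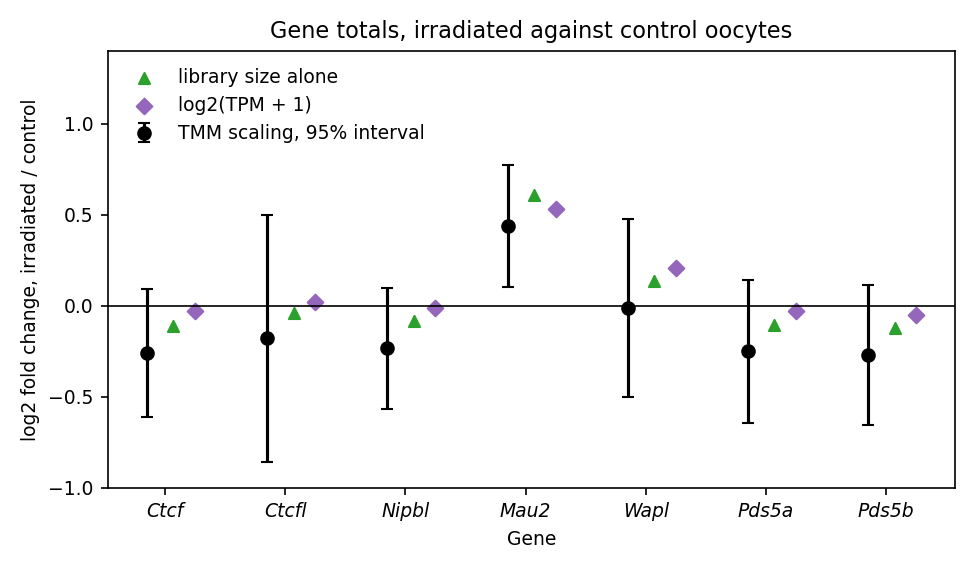
Log2 fold change of the gene total, irradiated over control, for each member, with black circles for the TMM-scaled edgeR estimate and bars for its 95% interval, green triangles for scaling by library size alone and purple diamonds for log2(TPM + 1). Mau2 (0.44) has the one interval that lies above 0, and the library size and TPM values lie above the TMM values, as does the median of all genes (0.17 and 0.14 against 0.010).

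Single transcripts varied more between replicates than gene totals did, with a common dispersion of 0.473 against 0.0251. Of the 25 member transcripts, 20 held at least 10% of their gene's count in some library, and the other 5 had at most 30 counts in any library. The filter on low counts kept 19 of the 25, and 17 had more than 3 counts in every library. None of the 19 was called in edgeR, as 0% of the 26645 transcripts tested were. One of the 19 reached an unadjusted p under 0.05, and 4.9% of all transcripts tested did.

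That transcript was NM_181322.3 of Ctcf, one of 2 curated RefSeq transcripts of the gene. Its estimated counts were 455 and 493 in controls and 121 and 172 after irradiation, or 463, 531, 128 and 150 normalized counts. It held 45.7% and 58.6% of the Ctcf count in controls and 14.6% and 20.1% in irradiated libraries, with a gap between the conditions on either scale. The log2 fold change was -1.83 (SE 0.185, 95% interval -2.36 to -1.31), which is 0.280-fold. The quasi-likelihood fit gave it an unadjusted p of 0.00089 and an adjusted p of 0.777. None of the 26645 transcripts tested had a lower adjusted p in that fit. DESeq2 gave an adjusted p of 0.000290 with a log2 fold change of -1.84, and edgeR's exact test an adjusted p of 0.000226, but in both the change stayed inside the limit of 2. An adjusted p under 0.05 in DESeq2 was reached by 0.897% of transcripts, and 0.862% also passed the limit on the fold change.

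The lower count of NM_181322.3 stood beside higher counts of other Ctcf transcripts, and not of the same ones in both irradiated libraries. The other 6 transcripts summed to 548 and 375 normalized counts in controls and 747 and 595 after irradiation. In irradiated library 1 the second curated transcript, NM_001358924.1, had 638 counts and 77.2% of the gene. In irradiated library 2 it had 315 counts and 36.9%, which lay between the values of the controls (489 and 299 counts, 49.2% and 35.6%). There the predicted transcript XM_006530648.2 had 268 counts, 31.5% of the gene, and it was listed at 0 in each of the other 3 libraries. Such a pattern, at least 100 counts in 1 library and 0 in the other 3, was found in 131 of 45505 listed transcripts (0.288%). XM_006530647.3 had 50, 19, 34 and 98 counts in control 1, control 2, irradiated 1 and irradiated 2, which overlapped between conditions. How these Ctcf transcripts differ in sequence was not analysed here.

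**Figure D3:**
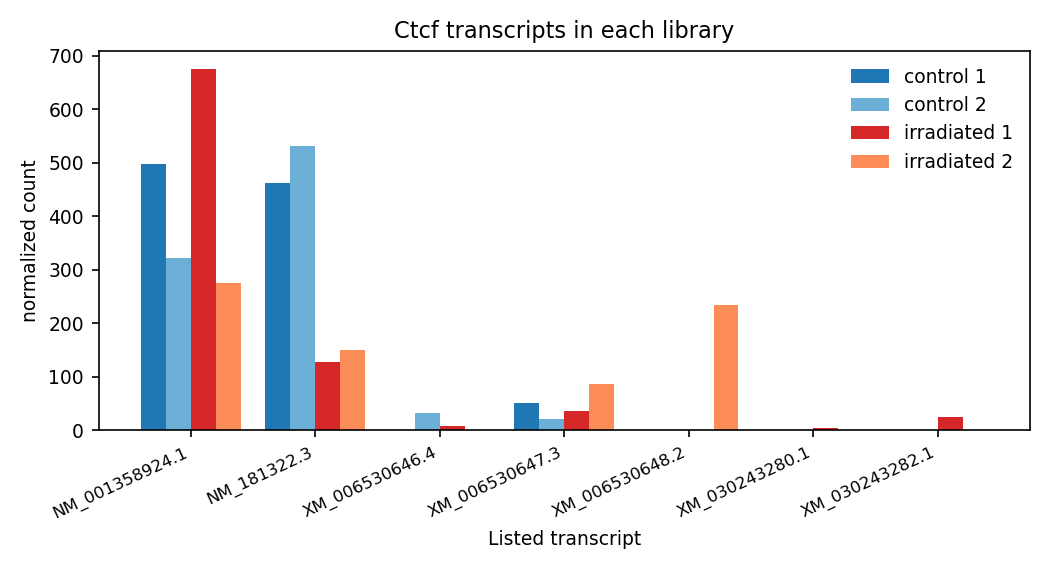
Normalized count of each listed Ctcf transcript in the 4 libraries, 1 bar a library. NM_181322.3 is at 463 and 531 in controls and 128 and 150 after irradiation, while XM_006530648.2 is above 0 in irradiated library 2 alone.

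Isoform usage, the division of a gene's count among its transcripts, was tested for all genes with several tested transcripts, with Simes' method in edgeR. None of the 7 members passed an adjusted p under 0.05, beside 0.253% of 6323 genes, and 0 had an unadjusted p under 0.05, beside 6.12% of these genes. For Ctcf this test covered 3 of 7 transcripts, because the filter on low counts left out the rest, XM_006530648.2 among them. With no filter all 7 entered, and the unadjusted p of Ctcf by Simes' method was 0.0837. Ctcf and Wapl had the smallest unadjusted values of the 7, and all 7 adjusted p values by Simes' method were 1.00. With edgeR's gene-level F test in place of Simes' method, the adjusted p was 0.470 for Ctcf and 0.786 for Wapl.

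The Wapl total was divided between the transcripts printed above. NM_001301330.1, the one without the 18 bases, had 13830 and 15355 counts in controls and 18499 and 18341 after irradiation, or 56.1%, 69.7%, 75.9% and 69.5% of the gene. NM_001004436.4 had 10806 and 6688 counts in controls and 5880 and 8059 after irradiation. Control library 2 and irradiated library 2 had nearly equal shares, so the conditions overlapped in share. The log2 fold changes were 0.22 (SE 0.182, adjusted p = 1.00) for NM_001301330.1 and -0.46 (SE 0.254, adjusted p = 1.00) for NM_001004436.4 in edgeR. XM_006518824.4 had at most 4 counts.

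In Mau2, 1 of the 2 transcripts was higher in both irradiated libraries and the other in irradiated library 2. NM_001167939.1 had 119 and 123 counts in controls and 264 and 190 after irradiation, with a log2 fold change of 0.81 (SE 0.338, adjusted p = 1.00, edgeR). NM_028993.4 had 327 and 274 counts in controls, 263 in irradiated library 1 and 553 in irradiated library 2. The share of NM_001167939.1 was accordingly highest in irradiated library 1 and lowest in irradiated library 2 (25.6%), just under control library 1 (26.7%).

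In Nipbl, the predicted transcript XM_006519995.2 held the largest share, with 278 and 247 counts in controls and 329 and 192 after irradiation. The curated NM_027707.3 had 115, 132, 119 and 160 counts in control 1, control 2, irradiated 1 and irradiated 2, and NM_201232.2 had 25, 33, 35 and 89. The last was higher in both irradiated libraries, with a log2 fold change of 0.91 (SE 0.598, adjusted p = 1.00, edgeR) that fell to 0.28 without irradiated library 2. XM_006519996.4 had 157, 84, 83 and 91 counts in that order, and XM_017316746.2 had 53, 127, 0 and 74. The zero of XM_017316746.2 in irradiated library 1 was thus not shared by irradiated library 2.

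The remaining genes were divided as follows. In Ctcfl, NM_001081387.2 had 62, 32, 58 and 46 counts and NM_001355185.1 had 52, 47, 44 and 36 in the same order of libraries, close to an even split. In Pds5a, NM_001081321.3 held 78.8% to 88.8% of the count in every library and XM_030254809.1 the rest, with 64, 41, 56 and 31 counts. In Pds5b, NM_175310.6 held 61.8% to 83.0%, and XM_006504905.3 had 70, 80, 58 and 31 counts. NM_001346503.1 had 71 counts in control library 1, 41 in irradiated library 2 and 0 in the other 2. Its zeros thus fell in 1 library of each condition. The stacked shares by library give these divisions for all 7 genes.

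**Figure D4:**
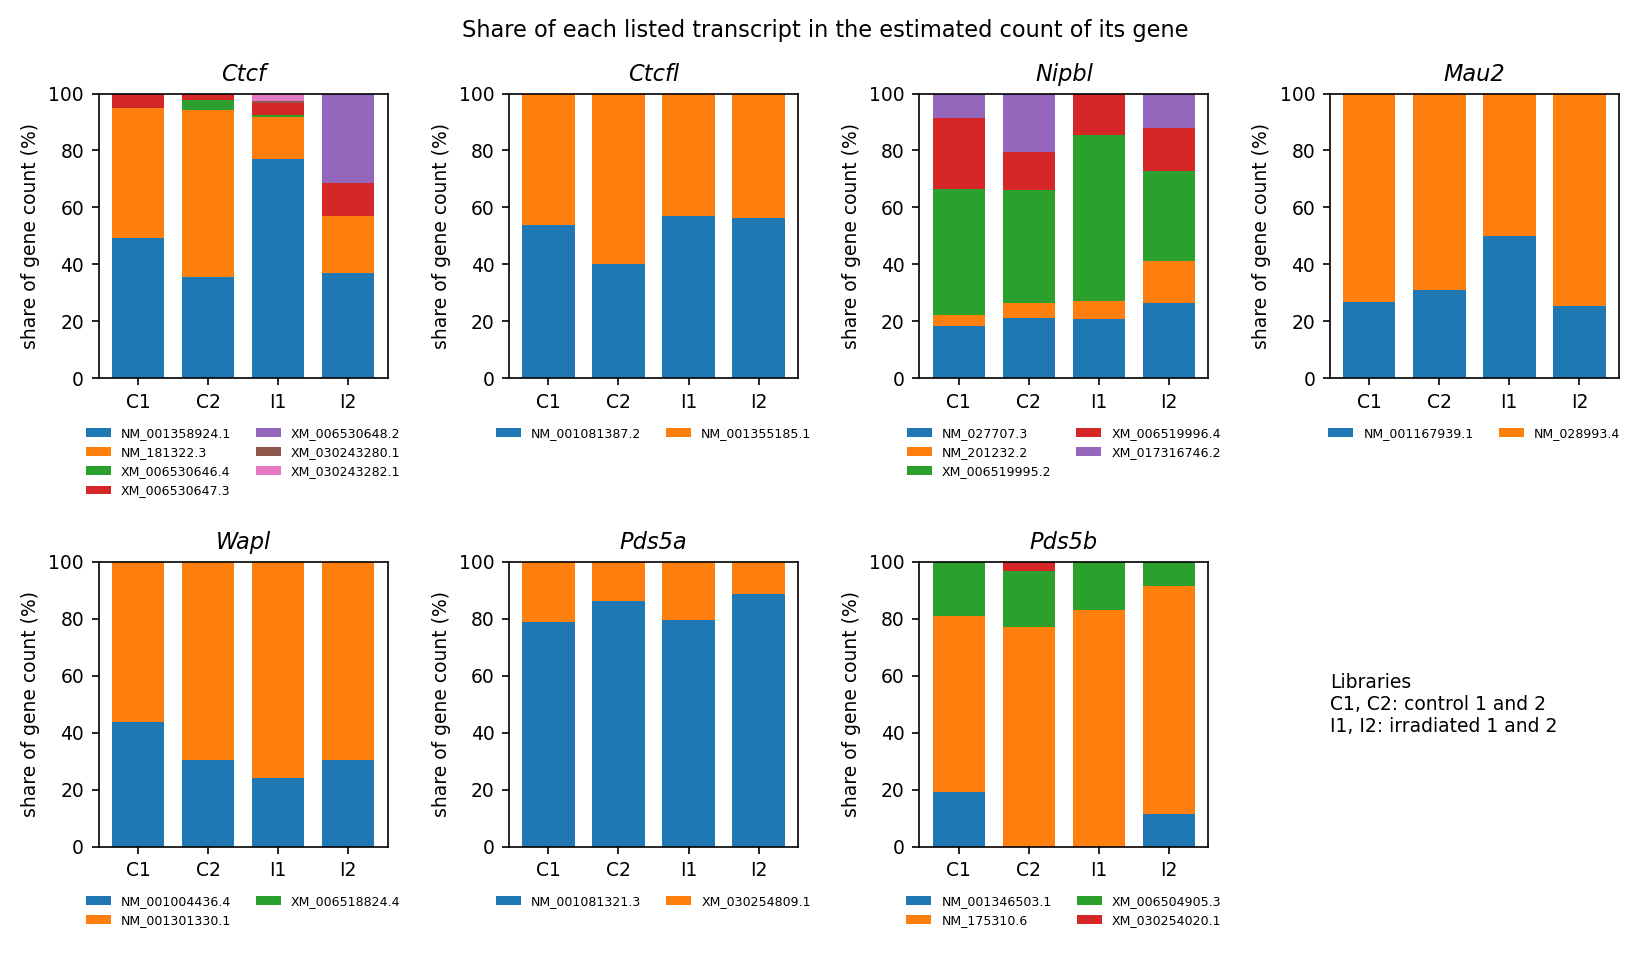
Share (%) of each listed transcript in the estimated count of its gene, 1 panel a gene and 1 bar a library, with each bar summing to 100. The orange part of Ctcf (NM_181322.3) is 45.7% and 58.6% in controls and 14.6% and 20.1% after irradiation, while the orange and blue parts of Wapl overlap between the conditions.

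Genes that work with the members were described by 3 lists. Of the cohesin subunits, 8 of 9 were in the table and tested (Rec8 was not listed), and 0 were called. Stag2, which encodes a subunit of the ring that contacts CTCF, was the one with an unadjusted p under 0.05. It had normalized counts of 440 and 448 in controls and 366 and 252 after irradiation. Its log2 fold change was -0.52 (SE 0.199, adjusted p = 0.708, edgeR). The median log2 fold change of the subunits was -0.35, beside 0.010 for all genes and -0.23 for the 7 members. Single subunits ran from -0.52 (Stag2) to 0.16 (Rad21l), with Rad21 and Smc1b also above 0. Their summed TPM overlapped between conditions, at 75.88 and 73.45 in controls and 71.03 and 77.76 after irradiation. Of 11 genes for establishment, protection and cleavage of cohesion, all 11 were tested, 0 were called and 0 had an unadjusted p under 0.05, with a median of -0.022. Of 10 CTCF partners and other architectural factors, 9 were tested, with 0 called, 0 at an unadjusted p under 0.05 and a median of 0.14. Maz, which encodes a zinc finger protein, had at most 1 count in a library and was not tested.

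The genes whose course over the 4 libraries was most like that of Ctcf, among 2967 genes with a mean normalized count within 2-fold of it, were Cep295, Zfp771 and Nudt2. The root mean square difference in log2 normalized count from Ctcf, after centring each gene on its own mean, was 0.00976, 0.0174 and 0.0231. With 4 libraries such closeness is common, as 379 of these genes lay within 0.1.

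The labelled cell type was checked with marker genes. All 14 oocyte markers were listed, with a summed level of 34289 to 38262 TPM, but single markers stood apart in irradiated library 2. Zp2, a gene of the zona pellucida, had 1937 TPM there and 4115 to 4452 TPM in the other 3 libraries, while Nobox, an oocyte transcription factor, had 1215 TPM there and 398 to 468 TPM in the others. Of 14 granulosa and cumulus markers, 9 were listed, with summed TPM of 14.7 and 15.5 in controls and 14.1 and 17.4 after irradiation, of which Cyp19a1 made up 8.79 to 10.2. Fshr was at 1.66 to 2.89 TPM, Kitl at 1.45 to 2.07 and Cyp11a1 at 0.90 to 2.17, while Inha, Inhba, Hsd3b1, Star and Gja1 reached at most 0.31. The defining markers Foxl2 and Amh were not in the table. The cohesin subunit Rec8 was not in it either, so absence from the table was not read as absence from the cells. Of 10 markers of theca, stroma, endothelium, blood and immune cells, 4 were listed, with summed TPM of 5.63 and 6.57 in controls and 5.93 and 9.45 after irradiation. The last value is also of irradiated library 2, in which Mau2 was at its highest. The part of these differences in the members' values was not tested.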

How the data were processed

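RNA-seq of 4 libraries was analysed, 2 of control and 2 of irradiated oocytes, grouped by the condition in the sample titles. The authors removed low-quality bases and aligned paired reads to GRCm38, with Bowtie2 per the paper and with HISAT2, Bowtie2 and RSEM named in the submitters' processing notes without versions. They deposited an estimated count, unscaled, and a TPM value for each of 45505 RefSeq transcripts of 17374 genes. The deposited counts summed to between 33349466 and 37232818 a library. Reads matching several transcripts had been divided among them, which adds an error to single transcripts that gene sums do not have. The release of the annotation was not given in the sources used here. A further 4 FPKM columns and 6 columns of averages were not used.

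Gene IDs were matched to RefSeq symbols (17323 of 17374). Counts were summed by gene and rounded. R 4.3.3 with edgeR 4.0.16 was used for the tests (glmQLFit and glmQLFTest after TMM scaling, filterByExpr at 10 counts), with Benjamini-Hochberg adjustment over all features. Calls followed the limits of the study's methods, a log2 fold change over 2 in size and an adjusted p below 0.05. The study applied these limits to transcripts, and its methods name edgeR for the comparison and DESeq2 for detecting the changed ones. The main test here used edgeR alone, so it is not a repeat of the study's calling. SEs and 95% intervals were derived from the fitted dispersions. Isoform usage was tested with diffSpliceDGE and Simes' method. Alternatives used DESeq2 1.42.0, the exact test of edgeR, limma 3.58.1 on log2(TPM + 1) and log2(TPM + 0.1), other scalings, no filter, a replicate block and leaving out each library. At most 3 counts was taken as the floor of detection. The tests were checked on simulated data. Named were all members, their transcripts with at least 10% of the gene in a library and the transcript with the smallest p of each, listed genes with an unadjusted p under 0.05, and the 3 genes most like Ctcf. The members and lists were chosen with earlier results of these data known. Plots were made in Python 3.11.15 with matplotlib 3.10.9.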

Additional observations from a re-analysis of the deposited data

How the results depend on the processing

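No member gene total and no member transcript was called under any alternative run, and the direction of Ctcf, Nipbl, Mau2, Pds5a and Pds5b totals held in all of them. The log2 fold change of Mau2 ran from 0.42 (DESeq2) to 0.64 (limma on log2(TPM + 0.1)) among the fits that kept all libraries. The Wapl total (-0.014) turned to 0.14 with library size alone, to 0.21 with limma on log2(TPM + 1) and to 0.21 on log2(TPM + 0.1), and the Ctcfl total (-0.18) turned to 0.019 and 0.034 on those TPM scales. With library size alone, XM_006519995.2 of Nipbl turned to 7.82e-05 and NM_175310.6 of Pds5b to 0.092. These scalings shift all features: the median of all genes moved to 0.17, 0.14 and 0.21, and that of all transcripts with library size to 0.15. Relative to these medians Ctcfl stayed lower (-0.21, -0.12 and -0.18), Wapl lay at -0.035, 0.072 and -0.0052, and both transcripts lay below the median.

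Leaving out each library in turn leaves 1 library in its condition, which is then assumed to vary like the other condition. Log2 fold changes of gene totals then ran from -0.41 to -0.13 for Ctcf, -0.53 to 0.10 for Ctcfl, -0.35 to -0.13 for Nipbl, 0.34 to 0.52 for Mau2, -0.12 to 0.078 for Wapl, -0.40 to -0.12 for Pds5a and -0.39 to -0.16 for Pds5b. Without irradiated replicate 1, the irradiated side is library 2 alone, which had the TMM factor of 1.19. The log2 fold changes were then 0.52 for Mau2, -0.41 for Ctcf, -0.35 for Nipbl, -0.39 for Pds5b and -0.40 for Pds5a. Without irradiated replicate 2 they were 0.34, -0.13, -0.13, -0.16 and -0.12 in the same order. All these fold changes stayed inside the limit of 2. NM_181322.3 of Ctcf kept a log2 fold change of -1.95 to -1.73. Directions turned for NM_001358924.1 of Ctcf (-0.58 to 0.72), NM_001081387.2 of Ctcfl (-0.31 to 0.55), NM_027707.3 (-0.10 to 0.19) and XM_006519995.2 (-0.72 to 0.35) of Nipbl, NM_028993.4 of Mau2 (-0.17 to 0.61), XM_030254809.1 of Pds5a (-1.02 to 0.12), and NM_001346503.1 (-8.11 to 7.18) and NM_175310.6 (-0.28 to 0.27) of Pds5b.

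Over all genes, 1 gene total was called, 0 with library size alone, 3 with no filter, 4 with DESeq2, 10 with the exact test and 16 to 84 when a library was left out. Transcripts called were 0 in edgeR (1306 at an unadjusted p under 0.05), 248 with DESeq2 and 247 with the exact test. Isoform usage was called for 16 genes, 8 with no filter and 58 with the gene-level F test. Whether same-numbered libraries came from the same experiment is not stated in the sources used here. The correlation of their deviations was 0.0592 for genes and 0.0146 for transcripts, which does not settle it. The replicate block gave 7 gene totals and 3 genes of isoform usage, and left every member uncalled. The cause of these differences was not tested. Among the member totals, the SE was largest (0.286) for Ctcfl, which had the fewest counts (78 to 114). The next largest SE (0.207) was that of Wapl, which had the most counts (22043 to 26404).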
